A study of Mus musculus with 64 samples.

Results

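Clones H and V were compared with each other in mono-culture, using the 4 libraries labelled with each clone and that culture, which are 8 of the 64 libraries of the series. The series holds RNA sequencing of 8 mouse pancreatic cancer lines, 7 clones and the KPC1 line, each grown alone or for 48 h together with fibroblasts, after which the tumor cells were sorted by their GFP. The 7 clones were subcloned from the tumor of a single mouse of mixed C57BL/6 background that carried 1 mutant Trp53 allele and Pdx1-Cre, which directs recombination to the pancreatic epithelium, and H and V share the alleles of that mouse. Clones E, H and V form the metabolic group 1 of the study, and the comparison asks what separates H and V, a pair that the grouping placed together. H and V are each 1 clone, so the 4 libraries of a clone are repeats of that clone, and the labels do not say that they came from separate cultures. The p-values below therefore measure only the spread between these libraries, which may be technical. The 8 coculture libraries of the same clones, which were not used to find the mono-culture differences, are given beside them.

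Pancreatic ductal adenocarcinoma cells that share the same driver alleles can still occupy different states. Loss of E-cadherin, encoded by Cdh1, and activity of transcription factors such as Snail, encoded by Snai1, move epithelial cells toward a mesenchymal state, in which vimentin is abundant and cell contacts are remodeled. Cells also differ in the signals that they send and sense, among them Wnt ligands, chemokines such as Cxcl12 with its receptor Cxcr4, and interferons, and some genes are held fully silent in one cell lineage and expressed in another.

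All 8 mono-culture libraries were rich in the keratins Krt8, Krt18 and Krt19 and in vimentin, whereas the epithelial adhesion gene Epcam was near 0 CPM (the count of a gene scaled to the library total) in both clones. The fibroblast genes Thy1, Fap and Lum had 0 counts in all 8, whereas other fibroblast markers were expressed in both clones, with means in H and V of 13.1 and 13.7 CPM for Pdgfra, 22.6 and 9.52 CPM for Pdgfrb, 31 and 31.2 CPM for Col1a1 and 53.2 and 40.9 CPM for Col3a1. The endothelial gene Cdh5 also had 0 counts in all 8, but the 10 endothelial markers together summed to 5.46 to 8.42 CPM in H and 12.12 to 16.55 CPM in V. Library totals were between 12994330 and 19486215 counts. Libraries of one clone were correlated with r of 0.9825 to 0.9914 (H) and 0.9849 to 0.9902 (V) over 12342 genes, and pairs of libraries from the different clones with r of 0.9132 to 0.9221. Library 4 of H was on another sample sheet than the other 7, as read from the library numbers, and without it 1451 genes were at least 2-fold apart in place of 1342. In bulk RNA a lower level can reflect fewer cells that express a gene or less RNA per cell, and these cannot be told apart.

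Of the 12342 genes tested in mono-culture, 6897 passed an adjusted p-value of 0.1 (55.9% of the genes tested), 3394 of them higher in H (27.5%) and 3503 higher in V (28.4%). A difference of at least 2-fold was found for 1342 genes (10.9%), 641 higher in H (5.19%) and 701 higher in V (5.68%). The median log2 fold change over all genes was -0.0045, with positive values higher in H throughout. The 4 libraries of H all lay above the 4 of V for 2648 genes (21.5%) and all below them for 2821 (22.9%). Most called differences were small, and 5445 genes were not called. Set beside the other pairs of clones, H and V had the third smallest number of genes at least 2-fold apart among 21 pairs, after E and T with 1072 and N and T with 1215, and K and N had 3166.

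**Figure D1:**
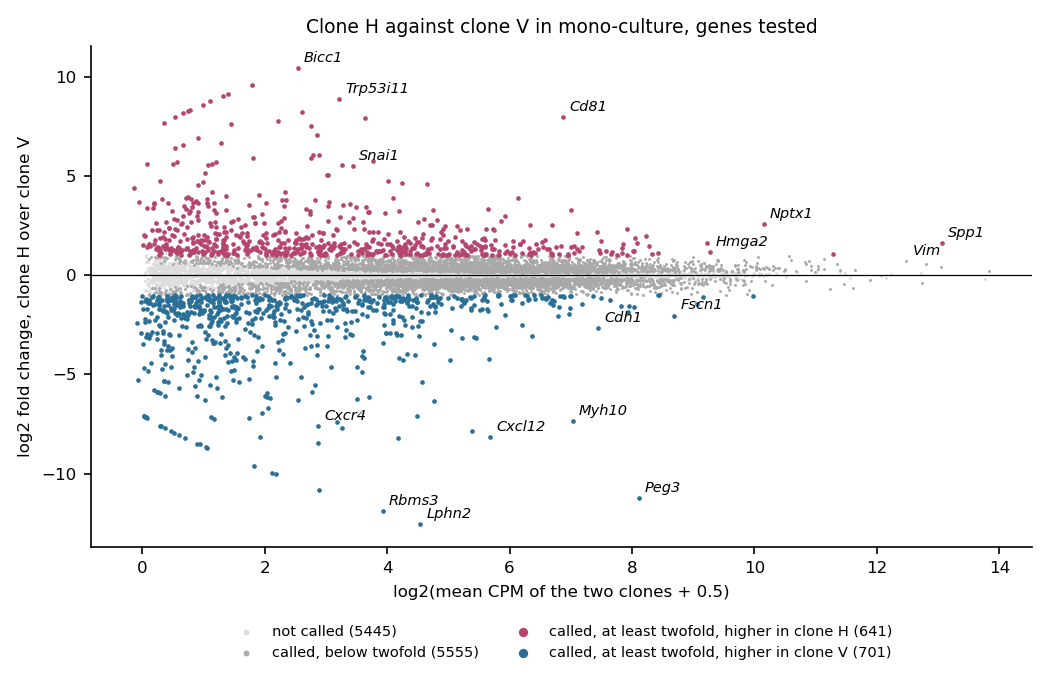
Difference between clones H and V in mono-culture for each of the 12342 genes tested, as the log2 fold change (vertical axis, positive is higher in H) against the log2 of the mean CPM of both clones plus 0.5 (horizontal axis); each point is a gene, colored if called and at least 2-fold apart (641 higher in H, 701 higher in V). Labelled genes are described in the text, and Peg3, Myh10 and Cd81 stand apart at high expression.

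The sharpest separation was in genes that one clone expressed and the other did not. With a mean of at least 5 CPM in one clone and below 0.1 CPM in the other, 9 genes were on in H and 16 were on in V. Bicc1 and Vipr1 had 0 counts in all V libraries, and Acss3, Lphn2, Ndnf, Rbms3, Rftn1 and Robo1 had 0 counts in all H libraries. For these 8 genes a fold can only be bounded, against a floor of 3 counts over the 4 libraries (0.047 CPM in H and 0.0452 CPM in V).

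Lphn2, a latrophilin adhesion receptor, had 40.1, 45.8, 46.4 and 50.2 CPM in the V libraries and 0 counts in each H library, at least 971-fold higher in V. Rbms3, an RNA-binding protein gene, had 31.2, 30.4, 24.2 and 32.2 CPM in V and 0 counts in H, at least 628-fold higher. The guidance receptor gene Robo1 had 7.77, 8.25, 7.23 and 7.46 CPM in V and was at least 163-fold higher there. Every V library thus lay far above every H library for these 3 genes. Ndnf was at least 293-fold and Acss3 at least 172-fold higher in V, and in the opposite direction Bicc1, an RNA-binding protein gene, was at least 235-fold and Vipr1, a receptor for vasoactive intestinal peptide, at least 132-fold higher in H.

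In another 7 genes the lower clone had 1 to 3 counts in all, so that only a ratio with its 95% counting interval can be given. Trp53i11 had 1146 counts over the H libraries and 2 over the V libraries, a ratio of 596 with an interval of 165 to 4930. Myo5b, an unconventional myosin of membrane traffic, had 889 counts in V and 2 in H, a ratio of 427 (118 to 3530). The translation factor gene Eif4g3 had 735 in H and 2 in V, a ratio of 382 (105 to 3160). These intervals cover counting error only.

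Peg3, a paternally expressed imprinted zinc finger gene on chr7:6703892-6730431 (GRCm38, as for all positions), had 501, 577, 511 and 619 CPM in V. In H it had 0.871, 0, 0 and 0 CPM, so that 1 H library alone held any reads. The log2 fold change was -11.25 ± 0.37 (SE, adjusted p = 1.3e-09). Myh10, which encodes a nonmuscle myosin heavy chain, had 274, 255, 249 and 258 CPM in V and 2.3, 1.2, 1.12 and 1.69 CPM in H, a log2 fold change of -7.35 ± 0.15 (adjusted p = 2.06e-11). Both genes were high in every V library and close to absent in every H library.

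Among the genes highest in H, Cd81, a tetraspanin of the cell surface on chr7:143052739-143067934, had 227, 254, 231 and 223 CPM in H and 0.811, 1.06, 0.618 and 1.15 CPM in V, a log2 fold change of 7.98 ± 0.13 (adjusted p = 3.01e-12). Its neighbor Tssc4 (chr7:143069249-143071093) had 12.2, 10.7, 13.5 and 13.5 CPM in H and 0.203, 0.0506, 0 and 0 CPM in V. R74862, on the other side of Cd81, was also higher in H, so that 3 neighboring genes were all near absent in V. Tgfb1i1, a focal adhesion adaptor, was at 24 ± 3.14 CPM in H (SD, n = 4) and 0.0886 ± 0.104 CPM in V. Runx3, a transcription factor gene, was at 13.7 ± 0.858 CPM in H and 0.18 ± 0.16 CPM in V.

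Other V genes at this level were Tbc1d9 (35.1 ± 3.63 CPM in V, 0.113 ± 0.0827 in H), the phospholipid flippase gene Atp8a1 (82.3 ± 17.1 and 0.341 ± 0.0743), the leptin receptor gene Lepr (52.5 ± 9.38 and 0.656 ± 0.305), the histone deacetylase gene Hdac9 (17.2 ± 1.6 and 0.092 ± 0.0747) and the signaling adaptor gene Grb7 (10.5 ± 1.06 and 0.139 ± 0.125). The receptor genes Flt4 and Kdr, whose products bind vascular endothelial growth factors, were at 22.3 ± 5.31 and 7.54 ± 2.1 CPM in V against 0.741 ± 0.221 and 0.729 ± 0.227 CPM in H. None of these overlapped between the clones.

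**Figure D2:**
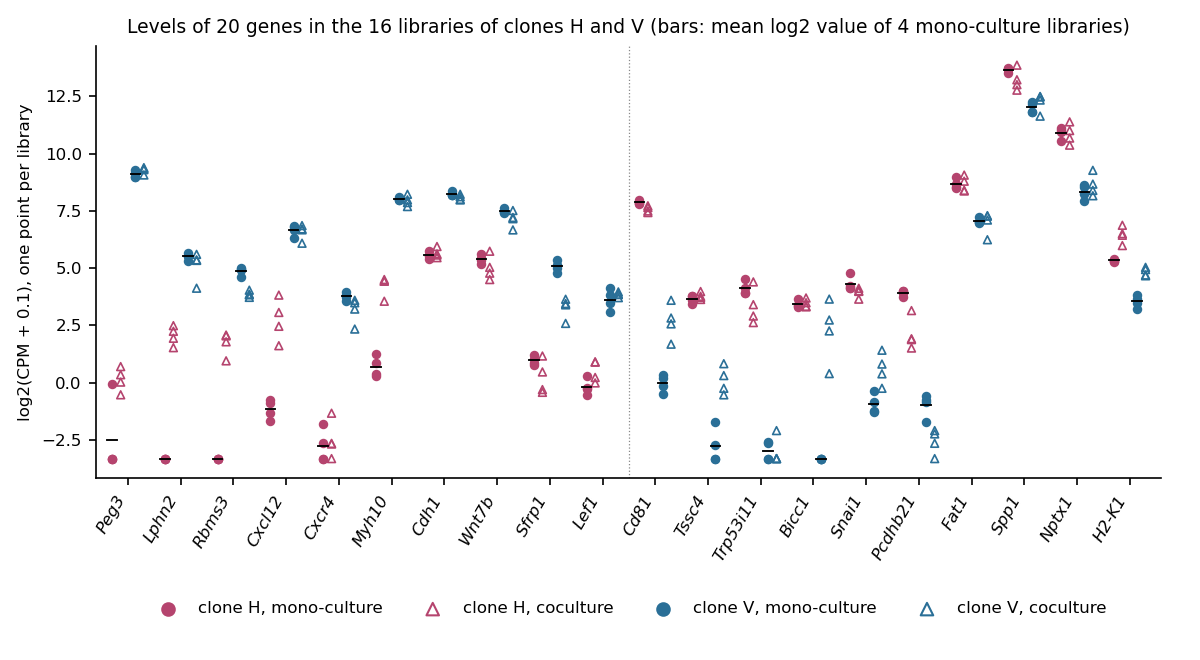
Levels of 20 genes as log2(CPM + 0.1), with 1 point for each of the 16 libraries of clones H and V in mono-culture (filled circles) and coculture (open triangles) and black bars for the mean log2 value of the 4 mono-culture libraries. The 10 genes left of the dotted line are higher in V in mono-culture and the 10 to its right higher in H; in coculture the triangles of Lphn2, Rbms3, Cxcl12, Myh10 and Bicc1 lie closer together.

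The other 5 clones from the same tumor, E, K, M, N and T, show on which side of the difference the family stood. Tssc4 was at 10.7 to 19.1 CPM in all 5, and V lay below them all. Slitrk5, a synaptic adhesion gene, was at 2.61 to 69.6 CPM in all 5 and at 7.23 CPM in V, and H lay below them all. In contrast, Trp53i11, Vipr1 and Armcx4, on in H, reached 1 CPM in none of the other 5 clones. The same held for 8 genes on in V: Chrna1, Cxcr4, Hdac9, Lrrn1, Myo5b, Rbms3, Rftn1 and Robo1. Over all genes called and at least 2-fold apart, H alone lay outside the range of the 5 clones for 157 of the 641 genes higher in H and V alone for 189, both lay outside for 153, and 142 were inside it. For the 701 genes higher in V, the numbers were 149, 229, 174 and 149. Over all genes tested, V alone lay outside the range for 17.7% and H alone for 13.7%. Both lay outside for 24% and both inside for 44.6%. Among the genes at least 2-fold apart, both lay outside for 23.9% (higher in H) and 24.8% (higher in V), close to the share over all genes. Choosing genes at least 2-fold apart itself makes it less likely that both lie inside.

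**Figure D3:**
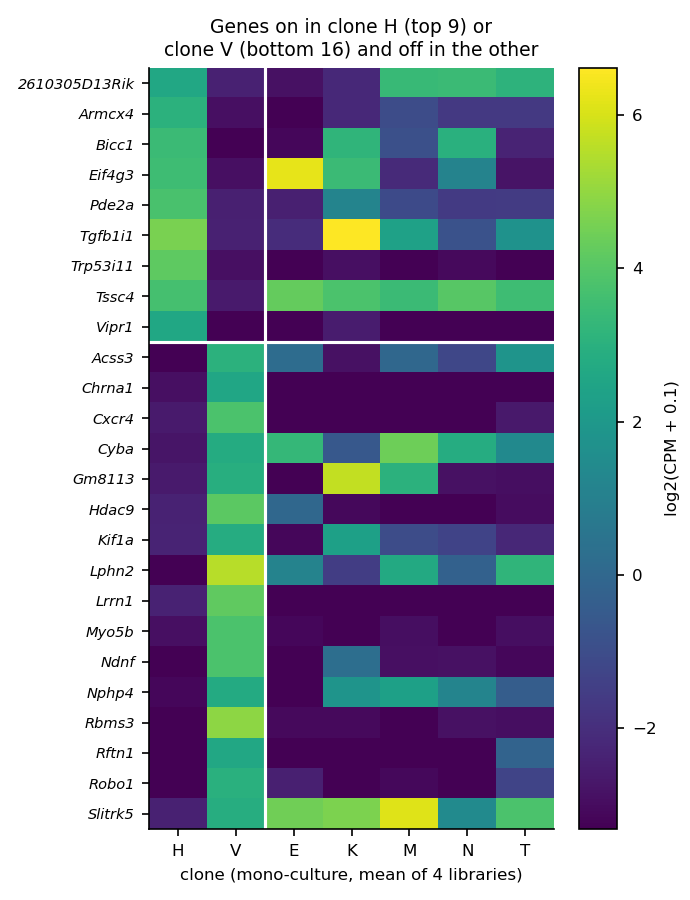
Levels of the 9 genes on in H and off in V (top) and the 16 genes on in V and off in H (bottom) in the 7 clones, as log2(CPM + 0.1) of the mean of 4 mono-culture libraries; each row is a gene and each column a clone. Tssc4 and Slitrk5 are on in all 5 other clones, whereas Trp53i11, Vipr1, Cxcr4, Lrrn1, Rbms3 and others are on in 1 clone.

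Cdh1 and Snai1 differed in opposite directions, whereas the wider lists of epithelial and mesenchymal genes were mixed. Cdh1 had 296, 330, 288 and 289 CPM in V and 46.1, 47.6, 54.1 and 42.5 CPM in H, 6.31-fold higher in V (log2 fold change -2.66 ± 0.09, adjusted p = 1.03e-09). Snai1, whose product represses Cdh1, had 17.6, 27.4, 17.6 and 18.7 CPM in H and 0.676, 0.455, 0.309 and 0.319 CPM in V, a log2 fold change of 5.51 ± 0.25 (adjusted p = 1.19e-08). Neither gene overlapped between the clones. In E, K, M, N and T, Cdh1 was at 140, 6.04, 1, 101 and 37.6 CPM and Snai1 at 2.84, 7.52, 1.62, 8.55 and 2.92 CPM. A link between these genes was not tested. Of 10 factors of the epithelial to mesenchymal transition tested, 5 were higher in H (Snai1, Twist2, Prrx1, Sox9 and Zeb1) and 2 in V (Snai2 and Tcf4). Their median log2 fold change was 0.07, against -0.0045 over all genes, and 70% were called, against 55.9% of all genes. Twist2 was 2.32-fold and Prrx1 2.03-fold higher in H, whereas Zeb1, Zeb2 and Twist1 had log2 fold changes of 0.13, 0.02 and -0.04, of which only that of Zeb1 was called.

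The epithelial genes divided between the clones. Of 11 tested, 72.7% were called against 55.9% of all genes, 4 higher in H and 4 in V. All 4 of those at least 2-fold apart were higher in V. These were Cdh1, the tight junction gene Ocln (7.6 ± 0.991 CPM in V, 0.353 ± 0.213 in H), the keratin Krt7 (11.3 ± 2.43 and 1.71 ± 0.572) and the plakophilin Pkp3 with a log2 fold change of -1.10. Other keratins of simple epithelia, Krt18 and Krt19, were higher in H by less than 2-fold. Krt19 was at 315 ± 18.7 CPM in H and 183 ± 8.76 CPM in V, and Krt18 at 1474 ± 58.7 and 1055 ± 46.7 CPM. Of 10 mesenchymal adhesion and cytoskeleton genes, 6 were higher in H and 1 in V (70% called), none by 2-fold. Vim had 7657, 7605, 5940 and 7136 CPM in H and 4350, 4773, 3762 and 4429 CPM in V, 1.64-fold higher in H (adjusted p = 0.000144). The actin bundling gene Fscn1, which is linked to invasive protrusions, had 664, 778, 560 and 648 CPM in V and 150, 178, 153 and 166 CPM in H, and was 4.1-fold higher in V.

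Surface adhesion genes leaned to V. Of 31 adhesion molecules and surface antigens tested, 19 were higher in V and 9 in H, with a median log2 fold change of -0.39. The share called was 90.3%, against 55.9% of all genes. Ly6a, which encodes Sca-1, had 82.5, 63.4, 72.1 and 46.6 CPM in V and 7.34, 12.1, 6.93 and 3.99 CPM in H (8.86-fold). Its family member Ly6c1 was 5.74-fold and the glycoprotein Cd24a 2.99-fold higher in V, although reads can be shared between the near-identical Ly6 genes. Higher in H were Cd109 (5.11-fold), Cd38, an enzyme that consumes NAD (4.94-fold), and the adhesion receptor Vcam1 (2.3-fold). Cadherins and protocadherins leaned to H, with 9 of 15 higher in H, 3 higher in V (80% called) and a median of 1.10. The protocadherin Pcdhb21 had 13.1, 14.8, 16 and 15.8 CPM in H and 0.203, 0.455, 0.494 and 0.574 CPM in V, and the large cadherin Fat1, 3.1-fold higher in H, had 358, 508, 407 and 368 CPM there and 128, 128, 149 and 124 CPM in V. The members of the protocadherin beta cluster are close copies, so the split of reads between them is uncertain.

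Of 27 Wnt pathway genes tested, 16 were higher in V, 4 were higher in H and 7 were not called. In all, 74.1% of the list was called, against 55.9% of all genes tested, of which 28.4% were higher in V. By at least 2-fold, 11 were higher in V and 1 in H, and the median was -0.67. Among the ligands, Wnt7b had 195, 172, 167 and 178 CPM in V and 40.2, 49.5, 36.2 and 43 CPM in H (4.23-fold), and Wnt10a had 27.4, 31.8, 21.6 and 27.2 CPM in V and 1.8, 2.57, 2.61 and 2.96 CPM in H (10.8-fold). Wnt6, which lies next to Wnt10a, had 0 counts in every H library and a mean of 1.77 CPM in V. The receptors of the pathway were mixed, with Fzd6 at -1.75, Fzd4 at -1.11, Fzd5 at 0.72 and Lgr4, a receptor for R-spondin, at 1.42.

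Axin2, a feedback inhibitor and known target of beta-catenin signaling, had 14.9, 16.9, 11.1 and 20.4 CPM in V and 2.68, 3.61, 2.5 and 3.32 CPM in H, 5.27-fold higher in V. The transcription factor Lef1 had 13.9, 11, 17.7 and 8.35 CPM in V and 0.747, 1.12, 0.586 and 0.725 CPM in H (16.3-fold). Rnf43, a ubiquitin ligase that removes Frizzled receptors, was at 7.45 ± 1.28 CPM in V and 1.51 ± 0.276 CPM in H. The secreted inhibitor Sfrp1, which binds Wnt proteins, was also higher in V (17.9-fold), with 32.1, 35.1, 27.6 and 41.1 CPM against 1.62, 1.69, 2.24 and 1.93 CPM. None of these 4 genes overlapped between the clones.

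Chemokine genes separated the clones in both directions, with 6 of 10 tested higher in H and 2 in V. The share called was 80%, against 55.9% of all genes. Cxcl12 had 103, 111, 79.4 and 113 CPM in V and 0.436, 0.482, 0.213 and 0.302 CPM in H, 288-fold higher in V (adjusted p = 1.5e-10). Its receptor gene Cxcr4 had 13.9, 11.7, 15.4 and 13.1 CPM in V and 0.187, 0, 0 and 0.0604 CPM in H. V thus expressed both the ligand and the receptor, and H neither above 0.5 CPM in any library. The chemokines higher in H included Cxcl15 (9.15 ± 4.42 CPM in H, 2.45 ± 0.707 in V), the monocyte attractant Ccl2 (65.7 ± 13.1 and 30.9 ± 7.52) and Cxcl16 (13.6 ± 1.17 and 4.51 ± 0.96), while Cxcl5 was called with groups that overlapped.

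The matrix program was split gene by gene. Of 21 collagens, 10 were higher in H and 6 in V (76.2% called, against 55.9% of all genes). Col4a5 and Col4a6, which encode 2 chains of basement membrane collagen and lie head to head on the X chromosome (chrX:141475385-141689234 and chrX:141165403-141474076), moved apart. Col4a5 was at 344 ± 36.5 CPM in H and 117 ± 11.1 CPM in V, and Col4a6 at 0.332 ± 0.135 CPM in H and 24.9 ± 0.339 CPM in V (log2 fold changes 1.56 ± 0.09 and -6.15 ± 0.17). Col15a1 was 9.75-fold higher in H. Of 19 matricellular and crosslinking genes 9 were higher in H and 7 in V (84.2% called), 6 each by at least 2-fold. The lysyl oxidases illustrate the split, with Loxl3 3.48-fold higher in H and Loxl2 8.96-fold higher in V. The proteoglycan gene Vcan was at 107 ± 16.4 CPM in H and 13.5 ± 1.48 CPM in V. Of 21 integrins and laminins (76.2% called) 12 were higher in H and 4 in V, 3 each by at least 2-fold. Among those higher in V was Itgb7 (2.93-fold).

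Osteopontin, encoded by Spp1, showed one of the largest differences in absolute level. It had 13784, 13140, 13174 and 11699 CPM in H and 4863, 3636, 4576 and 3654 CPM in V, 3.1-fold higher in H (adjusted p = 4.19e-07). Nptx1, a secreted pentraxin, had 2084, 1510, 1974 and 2202 CPM in H and 301, 243, 378 and 392 CPM in V (5.91-fold). Every H library was above every V library for both. The chromatin protein gene Hmga2 and the glycosyltransferase gene Galnt1 were also among the largest absolute differences toward H (2.27- and 3.07-fold). On the V side these were Peg3, Fscn1, Fbln2, the protease gene Ctsd and the exchange factor gene Net1, of which Fbln2 had 1357 ± 113 CPM in V and 650 ± 104 CPM in H.

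Of 26 secreted growth factor genes 15 were higher in H and 5 in V, with a median of 0.40. The share called was 76.9%, against 55.9% of all genes. Inhba, which encodes an activin subunit, was 4.53-fold, Fgf1 5.75-fold, Bmp2 5.63-fold and Pros1, a ligand of the TAM receptors, 3.78-fold higher in H. The repulsive guidance gene Sema3f was 5.77-fold higher in H. Among transcription factors of the homeobox, forkhead, Sox, Tbx and related families, 16 of 33 were higher in H and 7 in V (69.7% called). Tbx2, Tbx18 and Lhx9 were 7.21-, 7.72- and 7.41-fold higher in H, and the intestinal homeobox gene Cdx2 was at 6.13 ± 0.681 CPM in H and 0.366 ± 0.132 CPM in V. Gata6, a marker of the classical epithelial subtype, was 2.55-fold higher in V.

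The driver genes Trp53, Smad4 and Myc were not called. The log2 fold changes of Trp53, Smad4 and Myc were 0.01 ± 0.06, 0.13 ± 0.06 and -0.10 ± 0.07 (adjusted p = 0.933, 0.109 and 0.302). Counts per gene do not tell mutant from wild-type alleles. Of 24 driver and tumor suppressor genes, 9 were higher in V and 2 in H (45.8% called, below the 55.9% of all genes). Cdkn2a, which encodes p16 and p19Arf, had 471, 457, 459 and 446 CPM in V and 205, 253, 212 and 245 CPM in H, 2-fold higher in V (adjusted p = 1.03e-06), while its relative Cdkn2c was 4.35-fold higher in H.

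Of 33 genes of glycolysis and lactate metabolism 15 were higher in H and 3 in V (median 0.24). The 54.5% called and the 9.09% at least 2-fold apart were close to the 55.9% and 10.9% of all genes. The latter were 2 genes higher in H and 1 in V, including Pdk3, a kinase that restrains pyruvate oxidation (22.7 ± 2.63 CPM in H, 2.45 ± 0.225 in V), and the aldolase Aldoc (2.65-fold). Of 37 respiratory chain and tricarboxylic acid cycle genes 12 were higher in H and 10 in V, with a median of 0.01. The 59.5% called was close to the 55.9% of all genes, and 2.7% were at least 2-fold apart. Of 32 genes of cholesterol and fatty acid synthesis 16 were higher in H and 8 in V (75% called, 6.25% at least 2-fold apart). Insig1, a sterol-regulated brake on that pathway, was at 477 ± 35.3 CPM in H and 123 ± 9.28 CPM in V, whereas Srebf1, which drives lipid synthesis, was at 126 ± 4.17 and 370 ± 33.3 CPM. Of 34 Nrf2 and glutathione genes 10 were higher in H and 7 in V, with 50% called against 55.9% of all genes and 23.5% at least 2-fold apart against 10.9%. Mgst1, Aldh1a3 and Gstp1 were 6.7-, 6.51- and 2.96-fold higher in H and the heme oxygenase gene Hmox1 2.4-fold higher in V.

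Imprinted genes were not of 1 direction. Of 13 tested, 5 were higher in V (Peg3, Mkrn3, Peg10, Sgce and Snrpn) and 2 in H. The 53.8% called was close to the 55.9% of all genes, and 38.5% were at least 2-fold apart against 10.9%. Grb10, a growth inhibitor, had 93.2, 88.4, 93.4 and 84.4 CPM in H and 8.52, 7.89, 11.2 and 8.35 CPM in V (9.99-fold), and Igf2r was 2.05-fold higher in H. Peg10 and Sgce, which lie head to head on chromosome 6, were 2.58- and 1.67-fold higher in V.

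Called genes were spread unevenly over the chromosomes. The median log2 fold change was 0.349 for the 381 genes tested on chromosome 16 and 0.29 for the 576 on chromosome 10, and -0.337, -0.312, -0.245 and -0.221 on chromosomes 6, 13, 15 and 3. On chromosome 16, 63.5% of the genes were called higher in H and 7.87% higher in V, against 27.5% and 28.4% over all genes, and on chromosome 6 the shares were 13% and 58.2%. For 17 of 20 chromosomes the medians of the H libraries did not overlap those of the V libraries in mono-culture. An exact two-sided permutation test of 4 against 4 libraries then gives p = 0.0286, the smallest it allows, and an adjusted p of 0.0336 over 20 chromosomes. Any such separation gives this p-value whatever its size, as for -0.0275 on chromosome 2 and 0.349 on chromosome 16. The units are repeat libraries of 1 clone each, so the test measures no spread between clones. Median shifts over 0.1 in size were seen on 8 chromosomes, and all 8 had the same sign in coculture (0.303 on chromosome 16 and -0.312 on chromosome 6).

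Against the mean of the 7 clones, V was lowest of all on chromosome 10 (median -0.29) and 0.233 below the mean on chromosome 16, where E was at -0.239 and H at 0.0992. The clones also shared shifts. H and V were the highest of the 7 on chromosome 12 (0.28 and 0.232) and chromosome 18 (0.312 and 0.267) and the lowest on chromosome 19 (-0.247 and -0.276).

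**Figure D4:**
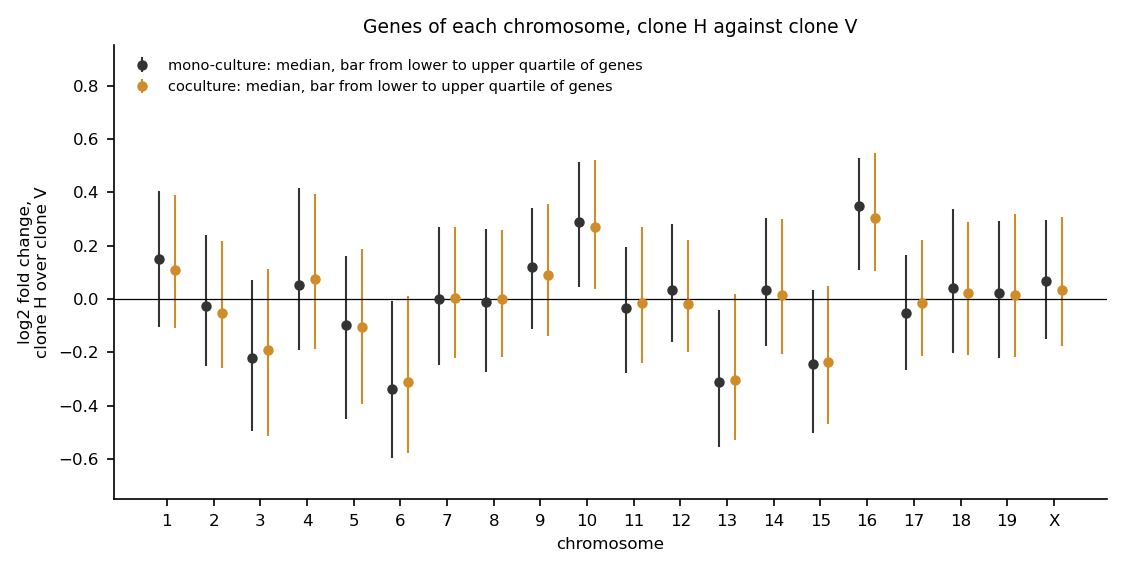
Median log2 fold change (H over V) of the genes tested on each chromosome in mono-culture (black) and coculture (orange), with bars from the lower to the upper quartile of genes. Chromosomes 10 and 16 lie above 0, and 3, 6, 13 and 15 below it, in both cultures.

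Of the 1342 genes at least 2-fold apart, 353 (26.3%) were next to another tested gene called in the same direction at this size. Over all genes tested, 10.9% were at least 2-fold apart in either direction, and whether such genes lay together beyond that share was not tested. In all, 24 runs held 3 or more genes, 93 in all. The longest run was of 10 genes on chromosome 4 from Txn1 to Hsdl2 (chr4:57943373-59618689), all higher in H by 1.03 to 1.87 on the log2 scale. Txn1, which encodes thioredoxin, had 274, 315, 285 and 221 CPM in H and 144, 139, 128 and 111 CPM in V, and the splicing factor gene Ptbp3 had 207, 214, 209 and 150 CPM in H and 68.6, 67, 80.6 and 64.7 CPM in V. Taken by their median, the 10 genes divided the 7 clones. Their median, relative to the mean of the 7, was 0.644 in H, 0.58 in N, 0.423 in E and 0.395 in T. It was -0.688 in V, -0.619 in K and -0.547 in M. Lpar1 did not follow, with 1.13, 4.42 and 10.1 CPM in E, N and T and 33.2, 9.41 and 26 CPM in K, M and V. The order of H and V was set by the choice of the run.

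Some of the other runs held members of a gene family. 8 protocadherin beta genes from Pcdhb14 to Pcdhb22 were higher in H by 1.22 to 5.07 on the log2 scale, and Armcx4, Armcx1, Armcx3 and Armcx2 on the X chromosome by 2.53 to 7.77. Cxcl5, Cxcl15 and Cxcl1 lay together on chromosome 5, higher in H. 6 histone genes of chromosome 13 were higher in V by 1.01 to 2.96 on the log2 scale in size, as were Ly6e, Ly6a and Ly6c1 on chromosome 15, in a run that also held Zfp41 and RP24-289J12.1. The histone genes are also close copies of each other. Other runs held genes with no shared family name, such as Fat1, Cyp4v3, Fam149a and Tlr3, higher in H, and Ifitm10, Ctsd, Syt8, Lsp1 and Tnnt3, higher in V.

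Coculture gave a second view of the same clones. Of the 12425 genes tested there, 4758 were called (38.3%), 2400 higher in H (19.3%) and 2358 higher in V (19%), and 1145 differed by at least 2-fold (9.22%), 745 higher in H (6%) and 400 higher in V (3.22%). Of the 641 genes at least 2-fold higher in H in mono-culture, 603 were tested in coculture and 522 were again called higher in H (86.6%), none in the opposite direction, with a median of 1.41 against 1.53. Of the 701 higher in V, 585 were tested, 408 were again called higher in V (69.7%) and 10 were called higher in H, with a median of -0.969 in coculture and -1.66 in mono-culture. The 10 were Agap2, Cacna1g, Col11a2, Cyp1b1, Itga11, Notch3, Tgtp1, Tgtp2, Tmem8b and Vnn1.

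Many of the genes that separated the clones most did so in both cultures. In coculture Cdh1 had 256, 299, 278 and 252 CPM in V and 47.5, 61.4, 49 and 43.8 CPM in H, a log2 fold change of -2.43 ± 0.12 (adjusted p = 8.05e-08). Peg3 had 536, 669, 630 and 649 CPM in V and 0.59, 1.52, 1.17 and 0.914 CPM in H, and Trp53i11 had 21, 10.5, 7.39 and 6.04 CPM in H and 0, 0.134, 0 and 0 CPM in V. The clones stayed fully apart for these genes. Cxcr4 had 11.1, 9.15, 4.95 and 12 CPM in V and 0.295, 0.0585, 0.0556 and 0 CPM in H. Wnt7b, Wnt10a, Sfrp1 and Lef1 were again higher in V, by log2 fold changes of -2.09, -3.76, -3.02 and -3.38, and Pcdhb21, Fat1, H2-K1 and Grb10 again higher in H, by 5.79, 1.65, 1.64 and 2.87.

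The sorted coculture libraries were not free of fibroblast transcripts. The sum of Dcn, Thy1, Postn, Fap and Lum was at most 0.191 CPM in any mono-culture library, and in coculture it was 30.2, 64.4, 72.8 and 96 CPM in H and 14.7, 48.3, 58.1 and 102 CPM in V. Cd68, a macrophage gene, rose from 2.3 to 5.98 CPM in mono-culture to 14.3 to 57.2 CPM in coculture, while the leukocyte gene Ptprc was at most 0.0668 CPM. Over the whole list of 20 fibroblast markers the summed level was 10510 to 13050 CPM in H and 8226 to 10070 CPM in V in mono-culture and 8118 to 12620 and 7083 to 10450 CPM in coculture, so that most of this sum was present in mono-culture as well. Of the 9 genes of that list tested in mono-culture, 6 were higher in H and 1 in V (77.8% called, against 55.9% of all genes). The part of these transcripts in the coculture results was not tested. Labels do not say whether mono-cultures were sorted, so that coculture and sorting cannot be told apart.

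The H to V difference itself changed with culture for 1394 of 12942 genes (10.8%), 795 toward H (6.14%) and 599 toward V (4.63%). Without replicate 2 of both clones the count was 306. A change of at least 2-fold was called for 493 genes (3.81%), 384 toward H (2.97%) and 109 toward V (0.842%). The 5 smallest adjusted p-values were those of Rbms3, Myh10, Robo1, Col4a6 and Fam198b. In all 5 the level in H was near 0 in mono-culture and detectable in coculture. Rbms3 went from 0 counts in the H libraries to 1.83, 3.34, 4.11 and 4.01 CPM and had 14.4, 16.3, 13.1 and 14.1 CPM in V, and Myh10 had 11.6, 22.5, 21.5 and 21.4 CPM in H and 206, 252, 233 and 299 CPM in V in coculture. Col4a6 had 2.6, 4.8, 4.17 and 4.93 CPM in H, and Fam198b, with 9.33, 15.2, 19.5 and 19.6 CPM in H and 17.3, 20.5, 21 and 21.4 CPM in V, was no longer called. The chemokine Cxcl12 had 2.95, 8.25, 5.39 and 14 CPM in H. Some genes that were on or high in H became detectable in V. Bicc1 had 1.21, 4.67, 6.54 and 12.4 CPM in V and Cd81 3.1, 5.81, 6.96 and 12 CPM, in the same order over the libraries as their summed fibroblast markers. That order is also the order of the replicate numbers, so replicate number and fibroblast RNA cannot be told apart by it. Other genes on in H stayed near 0 in V, with means in coculture of 0.0334 CPM for Trp53i11, 0.0307 CPM for 2610305D13Rik and 0.139 CPM for Vipr1. The part of fibroblast RNA in these values was not tested.

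Some of the interferon-stimulated genes, which encode antiviral and antigen presentation proteins, lay further apart in coculture than in mono-culture. In mono-culture 11 of 20 tested were higher in H and 3 in V (median 0.43), and in coculture 29 of 33 tested were higher in H, 26 by at least 2-fold, and none in V (median 1.91, against -0.0067 over all genes). The 33 include genes too low to test in mono-culture, such as Ifit1 and Isg15, and 20 genes were tested in both cultures. A gene can enter the coculture set through the clone where it is high. The counts and medians of the cultures are therefore of different sets of genes. In mono-culture 70% of the list was called, against 55.9% of all genes, and in coculture 19.3% of all genes were higher in H. The difference moved toward H in 12 of 33 genes and toward V in none, against 6.14% and 4.63% of all genes. When 1 replicate number was left out of both clones, the genes that moved toward H numbered 3 (without replicate 2) to 10 (without replicate 1). Relative to its own mono-culture the median of the list was 1.9 higher in H and 0.63 higher in V on the log2 scale. Without the replicate 1 libraries, which had the lowest fibroblast marker sums, 33 of 36 tested were higher in H in coculture and none in V.

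The effector Ifit1 had 5.19, 12.2, 25 and 44.3 CPM in H and 2.02, 2.8, 3.18 and 8.01 CPM in V in coculture, after at most 1.09 CPM in any mono-culture library. In both clones the coculture libraries stood in the same order as their summed fibroblast markers, which is also the order of their replicate numbers. Replicate number and fibroblast RNA cannot be told apart by this order, and the part of fibroblast RNA in these values was not tested. Parp14 was higher in H in both cultures, with log2 fold changes of 2.32 in mono-culture and 3.55 in coculture. Irgm1, an interferon-inducible GTPase, was higher in V in mono-culture (-0.90) and higher in H in coculture (0.49, adjusted p = 0.0948).

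Of 12 genes of antigen presentation tested in mono-culture, 6 were higher in H and 1 in V, and of 15 in coculture, 9 were higher in H and none in V. The 58.3% called in mono-culture was close to the 55.9% of all genes. Over all genes in coculture, 19.3% were higher in H and 19% in V. The 15 include genes that were not tested in mono-culture. The class I gene H2-K1 had 42.6, 39.7, 40.1 and 38.3 CPM in H and 14.1, 12.3, 11.1 and 9.25 CPM in V in mono-culture (3.44-fold), and 63.2, 90.6, 86.4 and 117 CPM in H and 25.2, 30.5, 25.8 and 32.6 CPM in V in coculture. Its difference was not called as changed with culture (log2 change -0.15, adjusted p = 0.738). H2-D1 and H2-T23 were 2.91- and 3.19-fold higher in H in mono-culture, and reads can be shared between these class I genes. Cd274, which encodes PD-L1, was higher in H by 0.85 on the log2 scale, and Cd74, the invariant chain of class II, was the 1 gene of the list higher in V.

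The promoters of 3 interferon-stimulated genes are shown because they carry the element that the family is known for, and because Bst2 was higher in H in both cultures while Ifit1 and Isg15 were too low to test in mono-culture. Each is the 250 bases before the RefSeq start on GRCm38.p6, 5′ to 3′ on the strand of the gene, with matches to the interferon-stimulated response element, a pair of short repeats a few bases apart, on either strand in capitals and overlapping matches merged into one run. They lie at chr19:34640639-34640888 (plus strand, Ifit1), chr4:156200819-156201068 (minus strand, Isg15) and chr8:71537473-71537722 (minus strand, Bst2).
Ifit1: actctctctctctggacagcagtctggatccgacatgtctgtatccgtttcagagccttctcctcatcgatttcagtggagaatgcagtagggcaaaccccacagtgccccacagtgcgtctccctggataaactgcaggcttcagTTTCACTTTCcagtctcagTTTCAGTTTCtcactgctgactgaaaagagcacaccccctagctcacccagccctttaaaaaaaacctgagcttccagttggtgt
Isg15: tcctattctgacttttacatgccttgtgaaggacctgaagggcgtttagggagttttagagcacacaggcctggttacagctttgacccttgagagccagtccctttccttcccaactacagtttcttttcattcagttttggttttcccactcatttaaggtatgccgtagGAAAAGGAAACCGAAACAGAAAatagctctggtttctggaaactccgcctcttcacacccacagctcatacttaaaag
Bst2: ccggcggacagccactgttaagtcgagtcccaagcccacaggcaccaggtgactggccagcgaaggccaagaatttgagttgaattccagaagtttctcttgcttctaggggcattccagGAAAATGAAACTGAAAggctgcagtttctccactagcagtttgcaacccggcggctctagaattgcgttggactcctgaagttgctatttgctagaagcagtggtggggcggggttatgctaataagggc
The motif was found in 45.5% of the 33 RefSeq promoters of the list (28 of its 40 genes have one) and in 2.98% of 32851 promoters of this length. Isg15 had 3.78, 7.14, 13.8 and 21.3 CPM in H and 1.68, 2.54, 4.07 and 6.18 CPM in V in coculture, and Bst2 had 59.7, 107, 135 and 157 CPM and 47.4, 39.6, 55.7 and 42.3 CPM. The order of the libraries was again that of the summed fibroblast markers, and of the replicate numbers, for Isg15 in both clones and for Bst2 in H. A match is a description of the letters and says nothing of binding in these cells.

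Targets of the integrated stress response, which the factor ATF4 activates when amino acids run short, moved toward V in part. In mono-culture 13 of 35 tested were higher in H and none in V (37.1% called, below the 55.9% of all genes), with a median of 0.34. Without V library 4, which had the lowest Asns of its group, 11 were higher in H and 3 in V, with a median of 0.16. In coculture 17 of 36 were higher in V and 3 in H (median -0.36), against 19% and 19.3% of all genes. The difference moved toward V in 17 of 36 genes and toward H in none, with a median of -0.63. Over all genes it moved toward V in 4.63% and toward H in 6.14%. Relative to mono-culture the list rose by a median of 1.09 in H and 1.73 in V on the log2 scale, and 34 of the 36 genes rose further in V. Over all 12942 genes tested, the change from mono-culture was higher in V than in H for 6520. When 1 replicate number was left out of both clones, the genes whose difference moved toward V numbered 0 (without replicate 2) to 17 (without replicate 4), with medians between -0.741 and -0.572.

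Asns, which encodes asparagine synthetase, had 148, 191, 142 and 131 CPM in H and 141, 120, 152 and 54.3 CPM in V in mono-culture, where the groups overlapped and the gene was not called (adjusted p = 0.218). In coculture it had 364, 406, 444 and 358 CPM in H and 600, 653, 611 and 456 CPM in V, a log2 fold change of -0.56 ± 0.12 (adjusted p = 0.00445). All 4 V libraries were above all 4 H libraries. The change of the difference was -0.96 (adjusted p = 0.0712). Atf4 itself had 380, 411, 462 and 411 CPM in H and 407, 347, 504 and 292 CPM in V in mono-culture, and 678, 791, 819 and 648 CPM in H against 1160, 1109, 1126 and 929 CPM in V in coculture. It too overlapped in mono-culture and separated in coculture.

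Psph, the last enzyme of serine synthesis, had 77.7, 76, 73.4 and 65 CPM in H and 225, 193, 149 and 119 CPM in V in coculture (log2 fold change -1.23 ± 0.17, adjusted p = 0.0002), after -0.06 in mono-culture. Psat1 and the mitochondrial enzyme gene Shmt2 were 1.96- and 1.78-fold higher in H in mono-culture and were not called in coculture. Gars, the glycyl-tRNA synthetase gene, and Chac1, which degrades glutathione, were not called in mono-culture and were higher in V in coculture (-0.80 and -0.98). Slc7a11, a cystine transporter gene, had 146, 152, 136 and 76.3 CPM in H and 43.1, 39.8, 68.3 and 22.8 CPM in V in mono-culture, and was higher in H in both cultures (log2 fold changes 1.55 and 0.58).

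The promoters of Asns, Gars and Slc7a11 are shown in the same form, as they hold the element that ATF4 is known to bind while Asns and Gars were higher in V in coculture and Slc7a11 in H. Matches to TGATGNAA on either strand are in capitals. They lie at chr6:7693210-7693459 (minus strand, Asns), chr6:55037751-55038000 (plus strand, Gars) and chr3:50443614-50443863 (minus strand, Slc7a11).
Asns: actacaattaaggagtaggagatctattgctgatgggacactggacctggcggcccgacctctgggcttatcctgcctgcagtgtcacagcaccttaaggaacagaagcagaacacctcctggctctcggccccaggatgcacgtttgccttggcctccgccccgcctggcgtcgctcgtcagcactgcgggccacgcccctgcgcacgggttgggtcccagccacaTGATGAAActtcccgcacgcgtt
Gars: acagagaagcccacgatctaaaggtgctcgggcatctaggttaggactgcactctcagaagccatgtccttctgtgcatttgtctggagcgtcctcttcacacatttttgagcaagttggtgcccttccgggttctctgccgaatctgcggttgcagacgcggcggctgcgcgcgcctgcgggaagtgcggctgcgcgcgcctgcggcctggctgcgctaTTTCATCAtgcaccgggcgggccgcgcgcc
Slc7a11: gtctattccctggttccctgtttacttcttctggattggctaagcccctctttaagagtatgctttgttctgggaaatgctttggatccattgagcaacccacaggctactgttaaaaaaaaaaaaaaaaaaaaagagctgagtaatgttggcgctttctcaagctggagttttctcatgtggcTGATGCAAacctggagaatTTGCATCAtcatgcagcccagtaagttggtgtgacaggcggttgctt
The motif was found in 26.3% of the 38 promoters of the list (31 of its 37 genes have one) and in 3.45% of all 32851. Of the genes with the motif, Aars, Asns, Chac1, Gars and Pycr1 were higher in V in coculture and Slc7a11 in H, Atf3, Nupr1 and Vldlr were not called and Fgf21 was not tested.

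Of 28 genes of the Wnt list tested in coculture, 9 were higher in V and 6 in H (median -0.17), and the difference moved toward H in 8 of 30 genes and toward V in none. Over all genes in coculture, 19% were higher in V and 19.3% in H, and the difference moved toward H in 6.14%. Leaving out 1 replicate number gave 3 (without replicate 2) to 5 genes toward H and at most 1 toward V. Axin2 fell in both clones, to 0.767, 0.878, 0.389 and 0.66 CPM in H and 1.88, 1.67, 0.825 and 3.45 CPM in V, and was still called higher in V (log2 fold change -1.54, adjusted p = 0.0161). The ligand Wnt9a reversed. It had 7.9, 11.2, 9.7 and 15.1 CPM in H and 15.5, 22, 10.1 and 21.9 CPM in V in mono-culture, with overlap, and 5.43, 4.15, 4.11 and 4.06 CPM in H and 1.08, 1.34, 0.531 and 2.39 CPM in V in coculture, where every H library was above every V library.

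**Figure D5:**
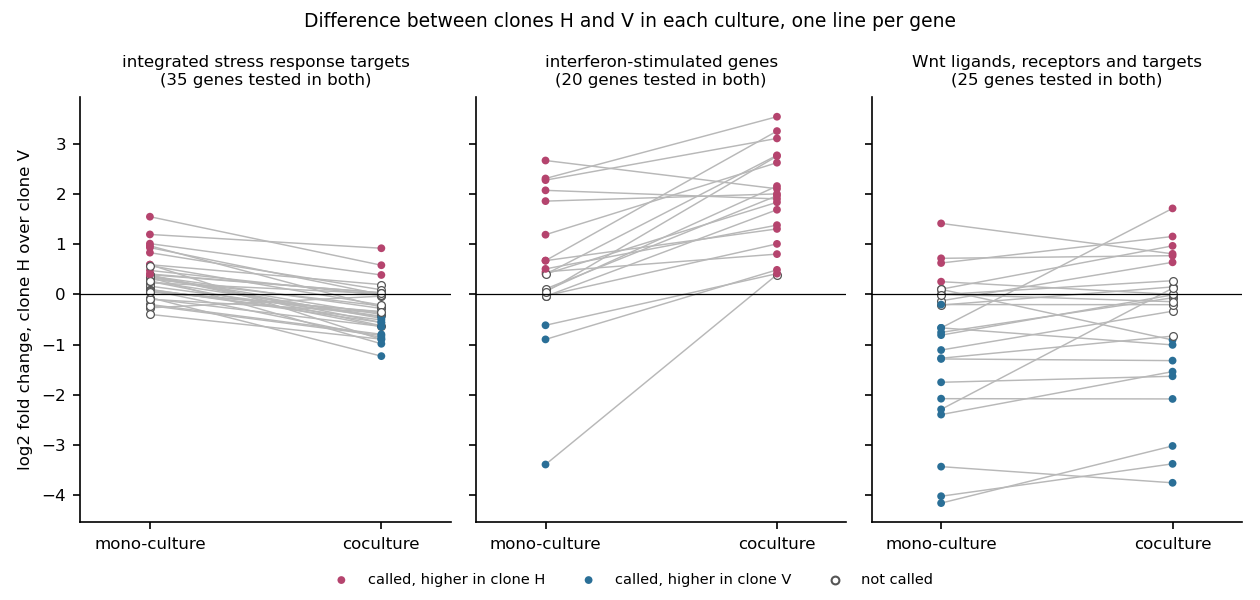
Log2 fold change between clones H and V (positive is higher in H) in mono-culture and coculture for 35 targets of the integrated stress response (left), 20 interferon-stimulated genes (middle) and 25 Wnt pathway genes (right) tested in both cultures, with 1 line per gene and filled points where the gene was called. Most lines of the stress response targets fall and most lines of the interferon-stimulated genes rise from mono-culture to coculture.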

How the data were processed

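RNA was sequenced as strand-specific, paired-end libraries of polyadenylated RNA, and each library was assigned to a clone and a culture from its labels. The authors deposited 2 tables. The first holds raw counts of reads on 39017 genes, which per the submitters' notes were made with featureCounts on mm10, and was used for every test. The other is a table of RPKM, computed by the authors per library, and entered alternatives only. The aligner is not given in the sources used here. All columns of both tables were mapped to samples (0 were left out), and neither table holds comparisons made by the authors.

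Genes with enough counts (filterByExpr) were tested with edgeR's quasi-likelihood test (edgeR 4.0.16, R 4.3.3) after TMM normalization, 4 libraries of H against 4 of V, in mono-culture and in coculture separately. The change of the difference with culture was tested as the interaction of clone and culture over 16 libraries. P-values were adjusted over all genes tested by Benjamini and Hochberg, and genes with an adjusted p-value under 0.1, the threshold of the study, are called. A log2 fold change is positive where H is higher, its SE was computed from the F statistic, and a fold is 2 to the power of the fitted log2 fold change. CPM values were not divided by gene length and are compared between libraries, not between genes. Library 4 of H in mono-culture and, in coculture, library 2 of H and libraries 1 and 4 of V belonged to the second sample sheet.

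The text names, by rule, the 15 genes per direction with the largest log2 fold change among called genes of at least 10 CPM and without overlap (predicted genes and pseudogenes left out), the 5 per direction with the largest difference in mean CPM among those at least 2-fold apart, up to 4 members per list and direction among called genes of at least 5 CPM, 9 driver and amino acid genes, and the 5 genes with the smallest adjusted p-values of the interaction. Genes with 0 counts, the members of runs, the genes that turned direction in coculture, and Wnt6, Wnt7b, Wnt9a, Fzd4, Fzd5, Fzd6, Lgr4, Fat1, Txn1, Ptbp3, Ifit1, Isg15, Bst2, Gars, Chac1, Zeb1, Zeb2, Twist1, Sox9, Snai2, Tcf4, Pkp3, Mkrn3, Snrpn, Cd74, Cd274, R74862, 2610305D13Rik, the cell type markers and the genes with a promoter motif are named beyond it, some of them as members of a list given in full and others chosen after their values were seen. Some genes that the rule names are not reported here. The comparison, the 38 gene lists and the naming rule were chosen with earlier results of these data known.

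Gene positions were taken on GRCm38 from GENCODE M21, where 37607 identifiers were found. Promoter sequences are RefSeq's on GRCm38.p6. The depth of 12994330 to 19486215 counts per mono-culture library puts the floor of 3 counts over 4 libraries near 0.05 CPM. The tests were tested on simulated data with 200 changed genes, far fewer than the 6897 called here in mono-culture. The changed genes were drawn from well-counted genes only, so the rates do not hold for genes of few counts. In mono-culture (12342 genes) 86.4% of the genes changed by 1.5-fold, 100% of those changed by 2-fold and 100% of those changed by 4-fold were called, and 13.3% of the calls were of unchanged genes. In coculture (12425 genes) 48.6%, 93.1% and 100% were called, and 11.2% of the calls were of unchanged genes. For the interaction (12942 genes) 36.6%, 87.5% and 100% were called. Alternatives were other normalizations (RLE, upper quartile), other filters, DESeq2 1.42.0, limma 3.58.1 on log2(RPKM + 1) and log2(RPKM + 0.1), a fold threshold (glmTreat), a stricter adjusted p-value, all 64 libraries in one fit, a replicate block, the sample sheet as a covariate and leaving out each library. Runs of the list counts without single libraries, and of the coculture tests without replicate 1, were chosen after seeing the data.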

Additional observations from a re-analysis of the deposited data

Results flagged for a closer look

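In 9 of 188 groups of 4 libraries tested, 1 library lay far from the other 3 by Dixon's criterion, close to the 1 in 20 that chance gives. Of these, 5 were H coculture libraries. In library 1 of H in coculture, Myh10 was lower (11.63 CPM) and Vim (8729 CPM), Pcdhb21 (8.736 CPM) and Wnt9a (5.43 CPM) were higher than in the other 3. Txn1 was high in library 4 of H in coculture (345.7 CPM). In mono-culture, library 4 of H was high for Bicc1 (12.5 CPM) and low for Ptbp3 (149.6 CPM), library 2 of H was high for Snai1 (27.37 CPM), and library 3 of V was high for Myc (340.9 CPM).

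The H to V difference changed with culture for 1394 genes, and for 22 of the 51 genes whose libraries were examined one by one. Genes on or high in V moved toward H, with changes on the log2 scale of 2.04 for Peg3, 9.43 for Lphn2, 9.82 for Rbms3, 4.5 for Cxcl12, 3.66 for Myh10, 8.65 for Robo1, 3.29 for Col4a6 and 4.08 for Fam198b. Genes on or high in H moved toward V, by -3.24 for Cd81, -3.84 for Tssc4, -9.67 for Bicc1 and -2.24 for Snai1. Where a clone had 0 counts in mono-culture (Lphn2, Rbms3, Robo1 and Bicc1) the fitted change depends on the prior count. The summed fibroblast markers were at most 0.191 CPM in mono-culture and 14.7 to 102 CPM in coculture, and their part in these changes was not tested.

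Stress response genes moved toward V, by -0.958 for Asns, -1.18 for Psph, -0.672 for Atf4, -0.609 for Gars, -1.24 for Psat1, -1.34 for Chac1 and -0.753 for Shmt2. The interferon-stimulated genes Parp14 (1.22) and Irgm1 (1.38) and the ligand Wnt9a (2.37) moved toward H.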

How the results depend on the processing

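The count of called genes in mono-culture (6897) lay between 5991 and 7612 under the other normalizations, filters and tests, except for glmTreat against a fold of 1.5, which called 1617 by its construction. The count at least 2-fold apart (1342) was 2189 without a filter on low counts, where 20825 genes were tested, and 501 with limma on log2(RPKM + 1), a scale on which fold changes of low genes are smaller. Limma on log2(RPKM + 0.1) gave 1154, of which 1117 were among the 1342. Leaving out 1 library gave 6255 to 6854 called genes and 1361 to 1451 at least 2-fold apart in mono-culture, and 4022 to 4728 and 1141 to 1326 in coculture. The number of genes whose difference changed with culture (1394) fell to 306 without replicate 2 and 928 without replicate 4 of both clones, the range over the 4 replicate numbers. It was 1757 with DESeq2. Of 272 named genes, 175 kept their call in mono-culture under every alternative run. H2-T24 turned direction, at -0.278 with limma on log2(RPKM + 1) and -1.22 on log2(RPKM + 0.1). Pde2a, which the RPKM table lists at 0, was at 0 on log2(RPKM + 1) and so had no direction there. The cause was not tested.

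Replicate numbers are shared between the clones, but same-numbered libraries did not all deviate together (correlations of 0.0959 to 0.415 in mono-culture and 0.00339 to 0.384 in coculture, and not every library was closest to its own number), so the numbers were not taken as pairs. A replicate block gave 7612 called genes in mono-culture (1350 at least 2-fold apart), 5206 in coculture (1173) and 2020 whose difference changed with culture.

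Depth limits statements on genes near the floor of 3 counts over 4 libraries, 0.047 CPM in H and 0.0452 CPM in V. The 4 libraries of a clone do not tell a clone's own features from those of its culture, and the coculture values include fibroblast transcripts whose part was not tested.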
